A study of Salmo salar with 31 samples.

Results

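The comparison described here is between Atlantic salmon skin at 1 month and at 4 months in seawater inside a semi-closed containment system (S-CCS), a floating enclosure that draws its water from depth. The members are the arrays whose labels name this system and one of these times: 6 fish at 1 month (S-CCS 1M) and 6 fish at 4 months (S-CCS 4M), 12 of the 31 arrays of the study. All 14841 non-control features of the array were used, each a different oligonucleotide probe, and 14172 passed the filter on dim signals. The other arrays held skin of 7 smolts sampled in freshwater before transfer, and of 6 fish at each time in an open net-pen (net-pen 1M and net-pen 4M). All fish were untreated farmed Atlantic salmon of one smolt batch on commercial feed, with 1 fish per array. Each system was a single enclosure. Fish were killed at sampling, so the animals of both times are different. Time in seawater cannot be told apart from age, body size, season and water temperature.

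Salmon skin is a living mucosal barrier. Its epidermis is not cornified and carries mucous cells, and beneath it lies a collagen-rich dermis with scales, pigment cells, vessels and nerves. The first months after transfer from freshwater to the sea are a period in which this barrier meets new salinity and new microbes while the fish grows. Whole skin was extracted, so fewer cells of one type and less RNA per cell cannot be told apart in any value below. None of the probe IDs could be matched to the 65341 genes in the reference table used here. Features are therefore given by probe ID, without gene name, function or sequence, the skin label could not be checked against marker genes, and separate features may report the same transcript.

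Values are log2 expression ratios (log2-ER) after scaling of the arrays and a lowess correction, and levels are given relative to the mean of the 7 smolts, which is 0. A difference of 1 is a doubling. The S-CCS arrays had no saturated spot, and between 0 and 25 spots per array were left out as non-uniform or outlying. Features well above background made up 93.0% ± 2.18 of an array at 1M and 90.7% ± 1.90 at 4M (SD, n = 6), a difference of -2.23 percentage points (two-sided exact permutation p = 0.0866, and 0.0433 without S-CCS 4M fish 6). The ratio of spot to background signal was lower in S-CCS 4M, 5.73 ± 1.14 against 7.82 ± 1.01 (SD, n = 6, exact permutation p = 0.0108, two-sided, with 0.00216 the smallest attainable). The part of this ratio in the results was not tested. S-CCS 1M was hybridized on 3 slides and S-CCS 4M on 3 others, with no slide in common. Smolts and net-pen 4M fish on the same slides link them, but thinly. Smolts lay with S-CCS 4M fish on slides 5 and 6, and smolt fish 3 alone lay with S-CCS 1M fish, on slide 10. Net-pen 4M fish lay with S-CCS 1M fish on slides 8 and 9 and with smolts on slide 7. Slide 4 held only S-CCS 4M fish 1 and 2.

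From 1 to 4 months in S-CCS, 2354 features changed at an adjusted p under 0.05 from limma (Benjamini-Hochberg over 14172 features). This was 16.6% of the features tested, with 1069 higher at 4M (7.54%) and 1285 lower (9.07%). The largest increases exceeded the largest decreases. Among called features with a change of more than 2 on the log2-ER scale, 40 were higher and 8 lower, and past 1 there were 306 higher and 209 lower. At the criteria of the study's methods, an unadjusted p under 0.05 with an absolute log2-ER over 0.8, 1250 features were called (8.82%), 690 higher and 560 lower. The median change over all 14172 features was 0.01. For 1411 features (9.96%) every fish of one time lay apart from every fish of the other, 594 higher at 4M (4.19%) and 817 lower (5.76%). An adjusted p under 0.05 from limma and this lack of overlap were both met by 1209 of the 14172 features, 474 higher and 735 lower. Near the threshold, Ssa#CX357013 changed by -1.34 (limma adjusted p = 0.0499) and was called, and Ssa#S31990766 changed by -0.45 (limma adjusted p = 0.0501) and was not.

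These counts moved with the slide term and with the scaling of the arrays. With slide as a fixed term, which could be fitted to the 25 arrays other than net-pen 1M, 210 features were called by limma (1.48%), 134 higher and 76 lower. S-CCS 4M fish 1 and 2, alone on slide 4, carry no weight in the change estimated this way. In this fit the median standard error of the change rose from 0.201 to 0.374, and 2313 of the 2354 features had a change of unaltered sign. The balance of directions moved with scaling and lowess together. With equal mean intensity and no lowess 397 features were higher and 2507 lower, 13.7% higher in place of 45.4%, and the median of all features was -0.18. With 75th percentile scaling and no lowess 1119 were higher and 1089 lower, 50.7% higher, and the median was 0.05.

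**Figure D1:**
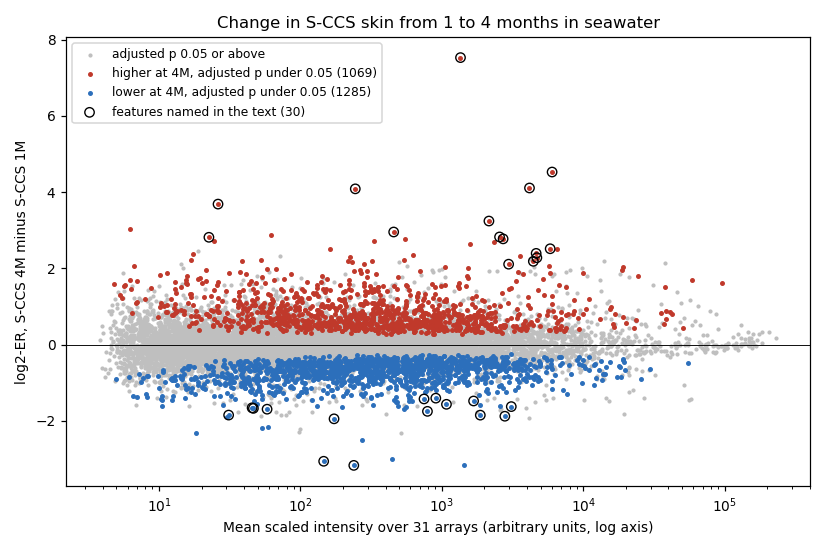
Change from S-CCS 1M to S-CCS 4M (vertical axis, log2-ER) against the mean scaled intensity of the feature over 31 arrays (horizontal log axis, arbitrary units), with 1 point per feature. The 1069 features higher at 4M are red, the 1285 lower are blue, and the 30 features named in the text are ringed, led by Ssa#GRASP209734281 at 7.53.

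Of the called features whose fish did not overlap and that were well above background on all arrays of at least one group, 30 were named: the 10 highest and 10 lowest changes, and the 5 highest and 5 lowest among the brightest of 4 equal classes of mean intensity. Their values describe the extremes of this comparison and were chosen for them.

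The feature with the largest change was Ssa#GRASP209734281. In S-CCS 1M its log2-ER to smolts ran from -2.41 to 3.21, with a median of -1.05. In S-CCS 4M it ran from 4.85 to 8.53, with a median of 7.53. The lowest 4M fish, fish 11, thus lay above the highest 1M fish, fish 1, and also above all smolts, which reached 3.66. The change was 7.53 ± 1.11 (SE, limma adjusted p = 1.13e-04), a ratio of 185 as processed here, and 3.90 with normexp background correction. At 1M the probe was near the detection limit, with a median scaled intensity of 7.69 and 4 of 6 fish well above background. The size of the ratio is thus uncertain. The lack of overlap between the times was a condition for naming the feature. At 4M the median intensity was 2750.

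A pair of features, Ssa#S30269971 and Ssa#S50687585, followed with changes of 4.53 ± 0.85 (SE, limma adjusted p = 7.95e-04) and 4.11 ± 0.95 (SE, limma adjusted p = 0.00412). Ssa#S30269971 ran from 0.26 to 4.26 with a median of 1.13 at 1M and from 5.32 to 7.94 with a median of 5.85 at 4M. Ssa#S50687585 ran from -0.13 to 3.64 with a median of 0.72 at 1M and from 4.58 to 7.25 with a median of 4.94 at 4M. Fish 2 was the highest 1M fish and fish 11 the highest 4M fish in both. Both were well above background in all 12 fish. At 4M both stood above smolts (limma adjusted p of 5.43e-06 and 8.22e-05), while at 1M neither differed from smolts past the threshold (limma adjusted p of 0.279 and 0.483).

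Ssa#S35586345 ran from 0.11 to 1.43 with a median of 0.80 at 1M and from 3.23 to 6.40 with a median of 4.77 at 4M. Its change was 4.09 ± 0.68 (SE, limma adjusted p = 2.71e-04), and a gap separated all 4M fish from both the 1M fish and the smolts. The feature was dim at 1M, with a median intensity of 29.3, and its change was 1.82 with normexp. Ssa#S35585511 rose by 3.69 ± 0.74 (SE, limma adjusted p = 0.00126), from between -3.53 and 0.13 at 1M (median -1.87) to between 1.06 and 2.61 at 4M (median 1.64). Only 1 of 6 fish was well above background at 1M, so its low end is poorly measured, and the 4M level did not differ from smolts past the threshold (limma adjusted p = 0.0801). Ssa#S18888461 rose by 2.82 ± 0.74 (SE, limma adjusted p = 0.0105) and was dim as well, with 4 of 6 fish well above background at 1M.

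**Figure D2:**
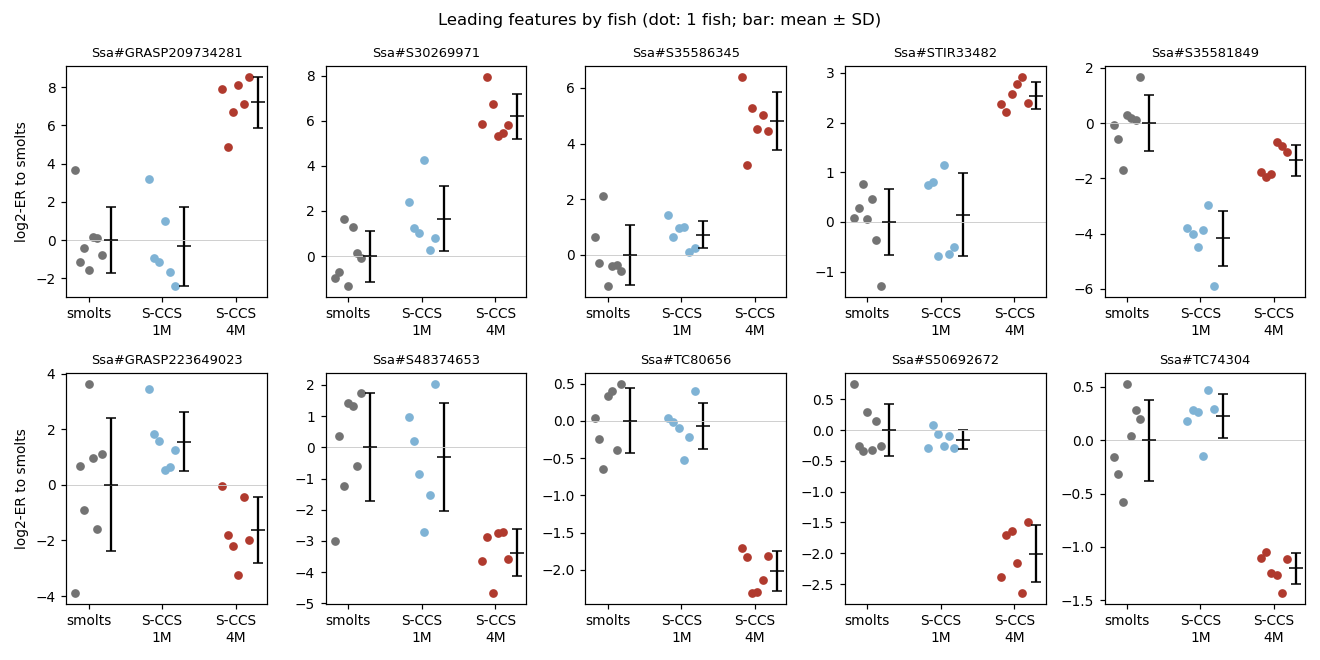
The log2-ER to smolts (vertical axes, scales differ between panels) of 10 of the named features in 7 smolts, 6 S-CCS 1M fish and 6 S-CCS 4M fish, with 1 dot per fish and bars for mean ± SD. In each panel the S-CCS 4M fish lie wholly above or below the S-CCS 1M fish, as the choice of the features required. Ssa#S35581849 lies below smolts at 1M and is partly back at 4M.

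Another pair, Ssa#S35581849 and Ssa#S35557995, rose from levels far below those of smolts. Ssa#S35581849 ran from -5.91 to -2.98 with a median of -3.94 at 1M, and from -1.95 to -0.69 with a median of -1.41 at 4M. Ssa#S35557995 ran from -5.82 to -2.82 with a median of -4.10 at 1M, and from -2.07 to -0.76 with a median of -1.42 at 4M. At 1M all fish lay below all smolts (limma adjusted p against smolts of 5.42e-05 and 3.99e-05), and these were the only members of the 30 that differed from smolts at 1M. With slide as a fixed term both of these calls against smolts were lost (limma adjusted p of 0.0787 and 0.0511). By 4M the fish lay partly within the smolt range (limma adjusted p of 0.104 and 0.0762). The changes were 2.83 ± 0.63 and 2.77 ± 0.62 (SE, limma adjusted p of 0.00299 and 0.00315). Median scaled intensity of Ssa#S35581849 was 5370 in smolts, 321 at 1M and 1790 at 4M. Ssa#S18846215 also rose, by 2.95 ± 0.96 (SE, limma adjusted p = 0.0335), with a median of -1.87 at 1M and 0.99 at 4M. Its smolt mean was raised by smolt fish 1, at 5.31, while the median of the smolts was -0.62, and neither time differed from smolts past the threshold (limma adjusted p of 0.267 and 0.442). It was no longer called by limma without fish 1, 6, 7 or 11 of S-CCS 1M or fish 1, 2, 6 or 11 of S-CCS 4M, with adjusted p between 0.0502 and 0.0742.

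A set of 6 features rose together to a narrow level at 4M. It held Ssa#TC102149 and the 5 highest further changes of the brightest class, Ssa#S48396562, Ssa#STIR33482, Omy#S23930476, Ssa#STIR38014 and Ssa#S48406382, the letters Omy being those the array uses for rainbow trout sequences. Changes ran from 2.11 ± 0.47 for Ssa#S48406382 (SE, limma adjusted p = 0.00296) to 3.24 ± 0.64 for Ssa#TC102149 (SE, limma adjusted p = 0.00118). Ssa#STIR33482, near the middle of the set, ran from -0.67 to 1.15 with a median of 0.12 at 1M, and from 2.22 to 2.92 with a median of 2.48 at 4M. All 6 were above smolts at 4M (limma adjusted p from 3.98e-04 to 0.00285), and at 1M their means lay between -0.30 and 0.15.

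After removal of the group means, these 6 features varied together between fish. The set was formed by linking named features with r over 0.9 across the 12 S-CCS fish, so a high r over those fish was a condition. Pairwise r was 0.72 to 0.99 over them. Over the other 19 fish, which did not enter the choice, it was 0.94 to 0.99. These r are given as a description across fish that share slides. Averaged over the set, S-CCS 1M fell into fish 1, 2 and 11 near the top of its range and fish 6, 7 and 12 near the bottom, from -1.0 to 1.01, with a mean of -0.04 ± 0.88 (SD, n = 6). Fish 1 and 2 shared slide 8 and fish 6 and 7 shared slide 9, while fish 11 and 12, both on slide 10, lay apart. In S-CCS 4M the mean was 2.41 ± 0.24 (SD, n = 6), from 2.10 to 2.71. Net-pen fish had a mean of 1.23 ± 0.64 at 1M and 0.56 ± 1.72 at 4M (SD, n = 6). The 4M net-pen fish were spread from -1.83 to 2.14 where the S-CCS fish were tight. This contrast is favoured by the way the features were named. Their S-CCS groups had to lie apart, while nothing was required of the net-pen fish. By slide, these net-pen fish stood at 2.14 and 2.04 on slide 8, -0.22 and -1.83 on slide 7, and 2.00 and -0.75 on slide 9. The part of slide in this spread was not tested. A further 12 features correlated with the set at r over 0.9 in both groups of fish. All 12 had a higher level at 4M, by 0.998 to 2.07, and 6 of them were called, beside 7.54% of all features called higher. The limit of 0.9 was chosen after the values were seen.

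**Figure D3:**
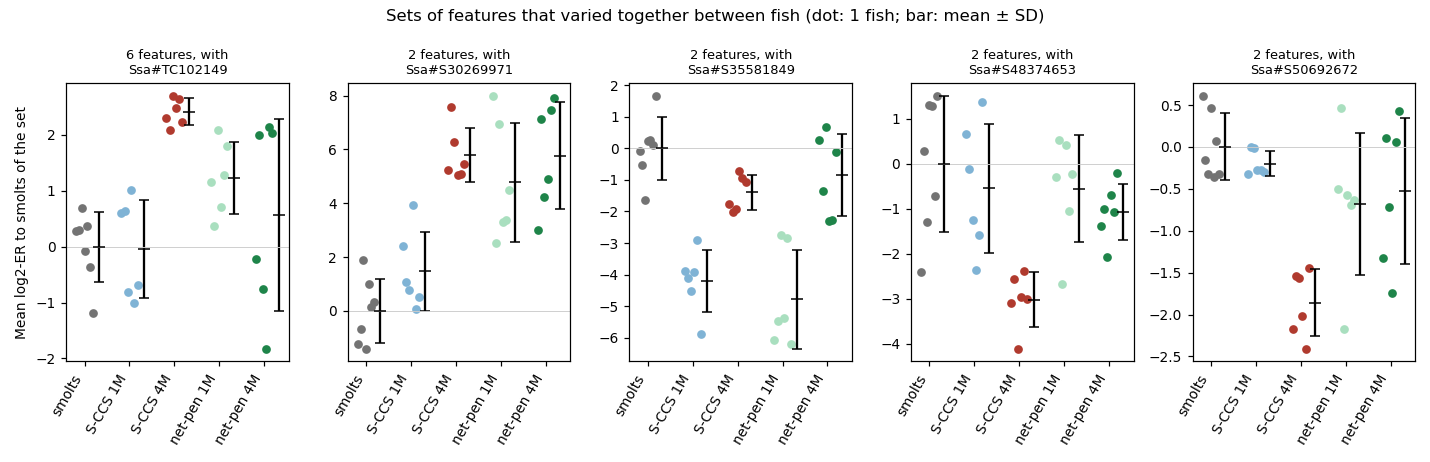
Mean log2-ER to smolts (vertical axes, scales differ) of 5 sets of named features that varied together between fish, in smolts (n = 7), S-CCS 1M, S-CCS 4M, net-pen 1M and net-pen 4M (n = 6 each), with 1 dot per fish and bars for mean ± SD. The sets were formed by r over 0.9 across the S-CCS fish. In the set of 6 the S-CCS 4M fish lie between 2.10 and 2.71 and the net-pen 4M fish between -1.83 and 2.14. The choice of features without overlap in S-CCS favours a small spread there.

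Ssa#GRASP223649023 and Ssa#S48374653 had the largest decreases among the named features, of -3.17 ± 0.86 and -3.06 ± 0.74 (SE, limma adjusted p of 0.0127 and 0.0057). Ssa#GRASP223649023 ran from 0.55 to 3.46 with a median of 1.40 at 1M, and from -3.23 to -0.04 with a median of -1.89 at 4M. Smolts were spread from -3.90 to 3.64, wider than either time. Neither time differed from smolts past the threshold (limma adjusted p of 0.323 and 0.162). Ssa#S48374653 ran from -2.70 to 2.04 with a median of -0.33 at 1M, and from -4.67 to -2.72 with a median of -3.23 at 4M. The groups were separated by only 0.0166, between 1M fish 2 and 4M fish 6.

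Ssa#S48374653 varied with Ssa#STIR43591 between fish (r of 0.90 over the S-CCS fish and 0.94 over the others). An r over 0.9 across the S-CCS fish was the condition for pairing them. Ssa#STIR43591 ran from -2.01 to 0.70 at 1M (median -1.04) and from -3.55 to -2.03 at 4M (median -2.48), a change of -1.88 ± 0.56 (SE, limma adjusted p = 0.0213). It was not called without fish 1 or 7 of S-CCS 1M or fish 12 of S-CCS 4M, with limma adjusted p between 0.051 and 0.0668. Averaged, the pair stood at -0.55 ± 1.43 at 1M and -3.02 ± 0.60 at 4M (SD, n = 6), so here too the 4M fish were closer to each other than the 1M fish. The pair of Ssa#S50692672 and Ssa#S35501058, described below, went the other way, with an SD of 0.15 at 1M and 0.40 at 4M (n = 6). A further 17 features followed this pair at r over 0.9 in both groups of fish. All 17 had a lower level at 4M, with changes from -3.17 to -0.0595 and a median of -0.72, and 5 of them were called, beside 9.07% of all features called lower.

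The next decreases had a smaller spread within a group. Ssa#TC80656 ran from -0.53 to 0.40 with a median of -0.05 at 1M, within the smolt range, and from -2.31 to -1.71 with a median of -1.98 at 4M (change -1.95 ± 0.35 SE, limma adjusted p = 4.6e-04). Ssa#S50692672 ran from -0.30 to 0.08 with a median of -0.17 at 1M and from -2.65 to -1.50 with a median of -1.93 at 4M (change -1.85 ± 0.35 SE, limma adjusted p = 7.56e-04). Ssa#S18892423 changed by -1.85 ± 0.30 (SE, limma adjusted p = 2.02e-04). In all 3 the fish at 4M lay below every smolt, while at 1M no difference from smolts passed the test (limma adjusted p from 0.854 to 0.947). Ssa#GRASP223649223, Ssa#DY713457, Ssa#STIR37920 and Ssa#DW338876 fell by 1.75, 1.69, 1.67 and 1.66 on the log2-ER scale, and Ssa#DW338876 was spread widely at 4M, from -2.48 to -0.05. In Ssa#DY713457 fish 2 of S-CCS 1M, at 1.35, stood far above the other 1M fish, which lay between -0.42 and 0.11.

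In the brightest class, the leading decreases beyond those already described were Ssa#GRASP209738173 (-1.63), Ssa#GRASP209733833 (-1.57), Ssa#S35501058 (-1.48, with 1M fish 7 left out as a marked spot), Ssa#TC74304 (-1.43) and Ssa#GRASP223648537 (-1.41). Ssa#TC74304 had the smallest adjusted p of the 5, with fish from -0.14 to 0.48 at 1M (median 0.27) and from -1.43 to -1.05 at 4M (median -1.18), a change of -1.43 ± 0.17 (SE, limma adjusted p = 1.97e-05). Its spread within a group was small, 0.21 at 1M and 0.14 at 4M (SD), and no 4M fish came near the smolt range of -0.58 to 0.53. Ssa#S35501058 and Ssa#S50692672 varied together between fish, with r of 0.90 over the S-CCS fish, the condition for pairing them, and 0.96 over the others.

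With slide as a fixed term all 30 named features kept their sign, and 12 of 30 were called by limma. These were the 6 of the set around Ssa#TC102149, at changes from 4.01 to 5.32, together with Ssa#GRASP209734281 (7.65), Ssa#S30269971 (7.60), Ssa#S50687585 (7.38), Ssa#S35586345 (5.58), Ssa#TC80656 (-2.13) and Ssa#TC74304 (-1.87). The other 18 were not called. Of these Ssa#S18846215 fell to 0.72 ± 1.82 and Ssa#DW338876 to -0.46 ± 0.86 (SE), Ssa#S35585511 stood at 2.11 ± 1.09 and Ssa#S35581849 at 1.87 ± 1.13 (SE). Without the slide term, changes were smaller in the set of 6 (2.11 to 3.24), Ssa#S30269971 (4.53), Ssa#S50687585 (4.11) and Ssa#S35586345 (4.09). In the slide fit, S-CCS 1M is linked only through smolt fish 3 and net-pen 4M fish. Over the set of 6, these net-pen fish ranged from -1.83 on slide 7 to 2.14 on slide 8. Their part in the larger changes was not tested.

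Normexp with an offset of 50, which compresses dim signals, also left all 30 signs in place and moved 12 of the 30 changes by over 1.5 times. Besides the 2 given above these were Ssa#S35585511 (0.60), Ssa#S18846215 (0.92), Ssa#S18888461 (0.38), Ssa#GRASP223649023 (-1.58), Ssa#S48374653 (-0.94), Ssa#TC80656 (-0.97), Ssa#S18892423 (-0.43), Ssa#DY713457 (-0.50), Ssa#STIR37920 (-0.49) and Ssa#DW338876 (-0.36). Calls were lost for Ssa#S18846215, Ssa#S18888461, Ssa#S48374653, Ssa#STIR43591 and Ssa#DW338876 (limma adjusted p from 0.0523 to 0.292). The changes in the set around Ssa#TC102149 were 1.90 to 2.74.

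Seen from the smolts, most of the distance arose at 4M. Averaged over the 1069 features called higher, the log2-ER to smolts was -0.22 ± 0.11 at 1M, from -0.39 to -0.10, and 0.66 ± 0.12 at 4M, from 0.43 to 0.81 (SD, n = 6). Over the 1285 called lower it was 0.05 ± 0.09 at 1M and -0.69 ± 0.11 at 4M, from -0.83 to -0.54 (SD, n = 6). The separation of the fish is fixed by the choice of the features, but the place of smolts between the times is not. The choice still favours smolts lying between the times, at a distance from either, since the same S-CCS fish enter both comparisons. Among the 30 named features, 10 were above smolts at 4M and 14 below at an adjusted p under 0.05 from limma, and 6 did not pass. At 1M, 2 passed. Against smolts, 3493 of all features were called at 4M (24.6%) and 643 at 1M (4.54%), 2 comparisons that share the smolts. The 4 smolts on slides of S-CCS 4M differed from the other 3 by -0.12 over the features called higher, where the mean change was 0.88. Over those called lower they differed by 0.09, where the mean change was -0.74. Of the other 3 smolts only fish 3 lay on a slide of S-CCS 1M, and fish 11 and 12 lay on slide 7, without S-CCS fish. These values therefore do not compare the slides of the 2 times. For the named features this difference between smolts ran from -1.31 to 2.07 and had the sign of the change in 11 of 30, among them Ssa#S35585511 (2.07) and Ssa#S35581849 (1.20).

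The net-pen fish sampled at the same times show how far these changes were shared. In net-pen 1107 features were called from 1M to 4M (7.81%), 721 higher (5.09%) and 386 lower (2.72%). Of the 1069 features higher in S-CCS, 126 were also called higher in net-pen, 11.8% of the S-CCS list and 17.5% of the net-pen list. Of the 1285 lower ones 33 were also called lower, 2.57% of the S-CCS list and 8.55% of the net-pen list. That was near the 2.72% of all features called lower in net-pen and the 9.07% called lower in S-CCS. Called in opposite directions were 38 features higher in S-CCS (3.6%), beside 2.72% of all features called lower in net-pen. Another 31 were lower in S-CCS and higher in net-pen (2.4%), beside 5.09% of all features called higher in net-pen. The median change of the 1069 features was 0.74 in S-CCS and -0.11 in net-pen, and that of the 1285 features was -0.66 and 0.08. Against smolts, net-pen fish averaged 0.34 at 1M and 0.34 at 4M over the 1069 features, and -0.35 and -0.29 over the 1285. At both times these net-pen means lay between those of S-CCS 1M and S-CCS 4M, a place favoured by the choice of the features for their S-CCS difference. The difference of the changes was itself tested by limma's interaction contrast. It was called in 589 of the 1069 (55.1%) and 750 of the 1285 (58.4%), beside 2291 of all features (16.2%), where choice by the S-CCS change favours such calls. S-CCS 1M and net-pen 4M lay partly on the same slides, and no net-pen 1M array shared a slide with another group, so slide and the difference of the changes cannot be told apart.

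The choice of the 30 named features by their S-CCS change also favours calls of the difference. Among them, 18 differed between the systems at an adjusted p under 0.05 from limma, beside 16.2% of all features. These 18 were 8 of those that rose and 10 of those that fell. The set of 6 around Ssa#TC102149 was among them, with net-pen changes of -0.85 to -0.44 that did not pass the test in net-pen. Averaged over Ssa#S30269971 and Ssa#S50687585, net-pen fish stood at 4.78 ± 2.21 at 1M and 5.77 ± 2.00 at 4M (SD, n = 6). S-CCS fish stood at 1.47 ± 1.46 and 5.79 ± 1.00 (SD, n = 6). Means of Ssa#S35586345 were 2.83 and 3.96 in net-pen, and 0.73 and 4.81 in S-CCS. In these features the systems lay further apart at 1M than at 4M. Ssa#DY713457 had the smallest adjusted p for the difference, with a change of -1.69 in S-CCS and 0.74 in net-pen (difference -2.43 ± 0.40 SE, limma adjusted p = 5.06e-04). Another 6 were called in net-pen too, all in the direction seen in S-CCS, and none of these passed the test of the difference. They were Ssa#GRASP209734281 (5.92), Ssa#S18846215 (5.12), Ssa#S35581849 (3.91), Ssa#S35557995 (3.94), Ssa#GRASP223649023 (-4.01) and Ssa#TC74304 (-0.85). For Ssa#GRASP209734281 the difference was 1.61 ± 1.57 (SE, limma adjusted p = 0.506). The low level of Ssa#S35581849 at 1M was likewise present in both systems, with a mean over it and Ssa#S35557995 of -4.20 ± 0.98 at 1M in S-CCS and -4.78 ± 1.57 at 1M in net-pen (SD, n = 6).

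**Figure D4:**
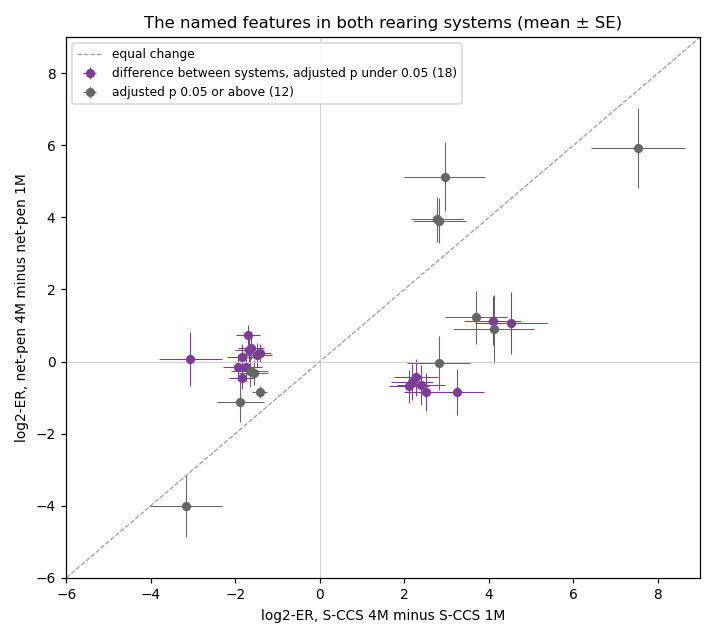
Change from 1M to 4M in net-pen (vertical axis) against the change in S-CCS (horizontal axis), both log2-ER with bars of ± SE, for the 30 named features; the dashed line marks equal change. The 18 features whose change differed between the systems (purple) lie between -0.85 and 1.13 on the net-pen axis, while those called in both systems have the same sign on both axes. The features were chosen for their S-CCS change, which favours calls of a difference.

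Calls were more frequent among bright features. From the dimmest to the brightest of the 4 classes, 8.64%, 14.3%, 20.7% and 22.9% of features were called, while the median absolute log2-ER of those called went from 0.905 to 0.613. By the letters of the probe ID, 153 of 1215 rainbow trout features were called (12.6%), 98 higher and 55 lower, and 2201 of 12957 salmon features (17.0%), 971 higher and 1230 lower. Salmon features with the letters GRASP were called most often among the larger sets of letters, 691 of 3129 (22.1%), with 231 higher and 460 lower. Their median intensity was 689, within the brightest class, which began at 665.

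The spread between fish was of similar size at both times, without a test. The median SD over features was 0.301 at 1M against 0.280 at 4M. The larger SD was at 4M in 44.8% of all features and in 51.4% of those called. Fish 2 of S-CCS 1M deviated most from its group, with a median absolute deviation over features of 0.252, and fish 2 of S-CCS 4M least, at 0.137. The former was the only S-CCS 1M array whose signal the scanner software had detrended across the array. The count of features called higher fell to 668 without fish 7 of S-CCS 1M and to 680 without fish 12 of S-CCS 4M, in place of 1069. For the other fish left out one at a time it lay between 781 and 1066.

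**Figure D5:**
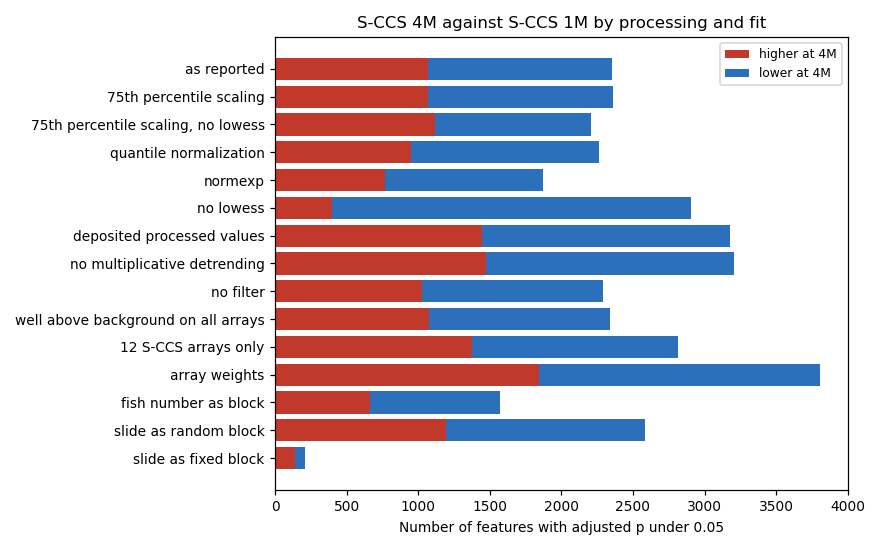
Number of features with an adjusted p under 0.05 (horizontal axis) in S-CCS 4M against S-CCS 1M under each processing and fit, split into features higher (red) and lower (blue) at 4M. The count is 2354 as reported, 3810 with array weights and 210 with slide as a fixed term, and without lowess 2507 of the calls are lower at equal mean intensity and 1089 with 75th percentile scaling.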

How the data were processed

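The authors hybridized Cy3-labelled skin RNA to one-colour oligonucleotide arrays and deposited the scanner tables of Agilent Feature Extraction 12.0.1.1. The processed signal used here is a background-subtracted intensity (arbitrary units), which the software had detrended across the array on 7 of 31 arrays, 1 from each S-CCS group. For the brighter spots, which alone were compared, the processed values that the authors deposited equal, up to a factor per array, the median signal minus local background. All deposited processed values served as an alternative. All 10 slides were scanned on 1 day.

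Following the study's methods, arrays were brought to one mean intensity, and the ratio of each feature to its average on the 31 arrays was taken. Its log2, computed here and not among the deposited values, was corrected by lowess (span 0.3) against mean log2 intensity. Features well above background on at least 50% of arrays of a group were kept, 14172 of 14841, so 669 were removed, and 145 marked values were left out. One limma 3.58.1 fit (R 4.3.3, with data.table, version 1.17.8) of 5 groups gave all contrasts, with Benjamini-Hochberg adjustment. The methods name no test for the expression comparisons. Tables were read with Python 3.11.15, numpy 2.4.6 and pandas 2.3.3 and drawn with matplotlib 3.10.9. Steps were tested on simulated data.

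Named features were the 10 highest and 10 lowest log2-ER among those with adjusted p under 0.05, S-CCS fish not overlapping and well above background on all 6 arrays of at least one S-CCS group, then the 5 highest and 5 lowest not already named in the brightest of 4 equal classes of mean intensity. The groups, lists and tests were chosen with earlier results of these data known. Gene and cell type lists planned by gene name could not be used, as no probe ID matched a gene name. Alternatives were quantile normalization, 75th percentile scaling with or without lowess, normexp (offset 50, on the median signal, since the planned mean signal could not be used), no lowess, the deposited processed values, no detrending, other filters, the 12 S-CCS arrays alone, array weights, fish number or slide as a block, and each S-CCS fish left out. The 75th percentile scaling without lowess, the contrasts of named features with smolts under the alternatives, and fish left out for the difference from net-pen and for signal to background were added after seeing the data. The number of arrays limits the precision.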

Additional observations from a re-analysis of the deposited data

Results flagged for a closer look

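Of 68 groups of values examined, 3 held a fish far from the others, where chance gives about 1 in 20, or 3.4. Fish 2 of S-CCS 1M stood above its group in Ssa#DY713457, at a log2-ER to smolts of 1.35, and in the share of features well above background, at 97.1%. It was also the only S-CCS 1M array that the software had detrended. The part of the detrending was not tested. Fish 12 of S-CCS 4M stood above its group in Ssa#TC102149, at 4.36.

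S-CCS and net-pen differed in their change between the times in 2291 features (16.2%) by limma's interaction contrast. Of the 30 named features 18 differed, where choice by the S-CCS change favours such calls. The S-CCS change exceeded the net-pen change by 3.45 for Ssa#S30269971, 2.95 for Ssa#S35586345, 4.09 for Ssa#TC102149, 3.35 for Ssa#S48396562, 3.05 for Ssa#STIR33482, 2.72 for Omy#S23930476, 2.74 for Ssa#STIR38014 and 2.80 for Ssa#S48406382. The S-CCS change minus the net-pen change was -3.13 for Ssa#S48374653, -1.79 for Ssa#TC80656, -1.98 for Ssa#S50692672, -1.39 for Ssa#S18892423, -1.61 for Ssa#GRASP223649223, -2.43 for Ssa#DY713457, -1.98 for Ssa#STIR37920, -2.01 for Ssa#GRASP209738173, -1.66 for Ssa#S35501058 and -1.64 for Ssa#GRASP223648537. Some of these differences lost their call in limma when 1 fish was left out. Ssa#S30269971 lost it without each S-CCS fish other than 1M fish 1, 1M fish 2 and 4M fish 2 (adjusted p 0.0544 to 0.0813). Ssa#S35586345 lost it without fish 6 or 7 of S-CCS 1M or fish 1, 6 or 12 of S-CCS 4M (adjusted p 0.0546 to 0.0646). Ssa#S48374653 lost it without fish 1, 7 or 11 of S-CCS 1M or fish 1, 7 or 12 of S-CCS 4M (adjusted p 0.0524 to 0.0781). Ssa#GRASP223649223 lost it without fish 1, 6, 7 or 11 of S-CCS 1M or fish 1, 2, 6 or 12 of S-CCS 4M (adjusted p 0.051 to 0.0709). Ssa#S18888461, not called for the difference, gained it without fish 1 or 12 of S-CCS 1M (adjusted p 0.0484 and 0.0473). With normexp 7 of the 18 lost their call in limma: Ssa#S30269971, Ssa#S35586345, Ssa#S48374653, Ssa#TC80656, Ssa#S18892423, Ssa#GRASP223649223 and Ssa#S35501058 (adjusted p 0.0599 to 0.443). Ssa#S18846215 gained one with normexp (adjusted p 0.0379). Ssa#S30269971 also lost its call with quantile normalization, without lowess, without the filter and with fish number as a block (limma adjusted p 0.0505 to 0.105). Each system was a single enclosure, which cannot be told apart from the system. No slide held both systems at one time, while S-CCS 1M and net-pen 4M shared slides 8 and 9.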

How the results depend on the processing

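For the count of calls, array weights gave 3810 features, 1842 higher and 1968 lower, and slide as a fixed term 210, with 134 and 76. Without lowess and at equal mean intensity 397 were higher and 2507 lower, and at the criteria of the methods 397 and 1140. With 75th percentile scaling and no lowess these were 1119 and 1089, and 739 and 484. Normexp gave 307 at these criteria, 208 higher and 99 lower. With the fish number as a replicate block 1567 were called, 663 of them higher. Same-numbered fish correlated between times at -0.316 to 0.121, so the numbers were not taken to pair fish. Leaving out 1 S-CCS fish gave 1602 to 2277 calls, 668 to 1066 higher and 922 to 1266 lower, 1098 to 1372 at the criteria of the methods (611 to 766 higher, 467 to 638 lower), 1702 to 2342 for the difference from net-pen, -2.67 to -1.39 for the share of features well above background and -2.37 to -1.72 for signal to background. Without S-CCS 4M fish 6 the share passed its test (-2.67, two-sided exact permutation p = 0.0433). The causes were not tested. The named changes in S-CCS kept their sign in 770 of 770 values and lost their call in 34. Leaving out 1 fish could not turn a sign, since the named features were chosen for groups that do not overlap. The difference from net-pen of Ssa#GRASP209734281 reversed with normexp, to -0.31. Signal over background limits the sizes given for dim features.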
